A study of Homo sapiens with 4 samples.

Results

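The genes of the ATF4 pathway and of the unfolded protein response were followed in AGS cells, an established human gastric adenocarcinoma line, after exposure to recombinant human fibroblast growth factor 2 (FGF2). The set holds 34 genes of the 51103 in the deposited tables and was taken by gene name from a fixed list. It comprises 18 genes of the ATF4 arm, 4 sensors and transcription factors of the endoplasmic reticulum (ER) branches, and 12 ER target genes of ATF6 and XBP1. The FGF2 group was AGS cells given FGF2 at 20 ng/mL and harvested after 24 h. The group it was set against is labelled NC, an abbreviation left unexplained, and its treatment text describes FGF2 as well, so the treatment of the NC cells is unknown here. Both groups are the same line in serum-containing medium, and each has 2 libraries of polyadenylated RNA, with no word on separate cultures.

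Cells answer a shortage of amino acids, haem or ER folding capacity by phosphorylating the translation factor eIF2. This lowers general protein synthesis while the mRNA of the transcription factor ATF4 is translated better, and ATF4 then switches on genes for amino acid supply, feedback and, with its partner CHOP, cell death. Misfolded proteins in the ER lumen also activate IRE1 (the product of ERN1), which splices XBP1 mRNA, and ATF6, which is cut free of its membrane, and both induce chaperones and degradation factors of the ER. Because ATF4 is set mainly by translation, XBP1 by splicing and ATF6 by cleavage, gene-level mRNA counts do not measure the activity of these 3 factors.

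The libraries held 13790335 and 27598608 counts in the FGF2 group and 14073340 and 27325697 counts in the NC group. Library 1 exceeded library 2 at only 2 of 22043 genes in the FGF2 group, where 1158 would be expected of separate libraries, and at 2 of 22485 genes in the NC group, where 1221 would be expected. The reads of library 1 thus appear to be part of library 2, and the 2 libraries of a group stand for a single sample (n = 1 in each group). No value below has an SD or a p. Of 8 epithelial markers, 6 reached 1 FPKM in either library 2, while CDH1 and CLDN4 did not, and EPCAM was at 0.518 FPKM in FGF2 library 2 and 1.19 FPKM in NC library 2. By the rule given next KRT19 was higher, and KRT8, EPCAM and ELF3 were lower. The summed level of all 8 was 582.5 and 575.4 FPKM in the FGF2 libraries, against 630.4 and 645.7 FPKM in the NC libraries. FPKM are the deposited values scaled to exon length and library depth. Of 12 fibroblast markers, 3 reached 1 FPKM in either library 2, and COL1A2 and FAP were at 0 in every library. Of the 6 fibroblast markers that passed the filter on low counts, 1 met the same rule as higher and 3 as lower. COL6A3 was higher, at 15 counts in FGF2 library 2 and 1 in NC library 2. COL1A1, PDGFRB and COL3A1 were lower, the last at 6 and 137 counts. COL6A3 passed only through the FGF2 libraries and COL3A1 only through the NC libraries, so both had to differ. The summed level of all 12 was 84.4 and 84.1 FPKM in the FGF2 libraries, against 141.5 and 144.8 FPKM in the NC libraries. The part of such markers in the results below was not tested, and in bulk RNA fewer cells of a type and less RNA per cell cannot be told apart.

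Each fold change is given as log2 of FGF2 over NC, from the TMM-scaled counts of library 2 in each group, with an exact 95% binomial (Clopper-Pearson) interval that covers counting error only. With library 1 taken as part of library 2, each library 2 was split into the reads of library 1 and its other reads. The call of higher or lower required that both FGF2 read sets differ from both NC read sets by 1.2-fold or more in 1 direction. This is a rule of size and not a test. By it 28.6% of the 15030 genes tested were called, 12.2% higher and 16.4% lower, and the median of all genes tested was -0.00 on the log2 scale. FPKM carry no TMM factor, and scaling by total count, as FPKM are, put that median at -0.09, so a gene with slightly lower FPKM in the FGF2 libraries can have a fold change just above 0. All 34 genes passed the filter on low counts, but NUPR1 passed only through the NC libraries and ASNS only through the FGF2 libraries, so both had to differ.

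Of the 18 ATF4 arm genes 14 were not called, 2 were higher and 2 lower, a share of 22.2% that is near the 28.6% of all genes tested and includes NUPR1. In the FGF2 sample PPP1R15A and TRIB3, which encode feedback inhibitors of the response, were higher at 1.92-fold and 1.70-fold. PHGDH, the first enzyme of serine synthesis, was lower at 0.674 times the NC level. ATF4 mRNA was 1.26-fold the NC level, at the edge of the rule. Of the 12 ATF6 and XBP1 targets 0 were called, and all lay between -0.23 and 0.28 on the log2 scale.

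**Figure D1:**
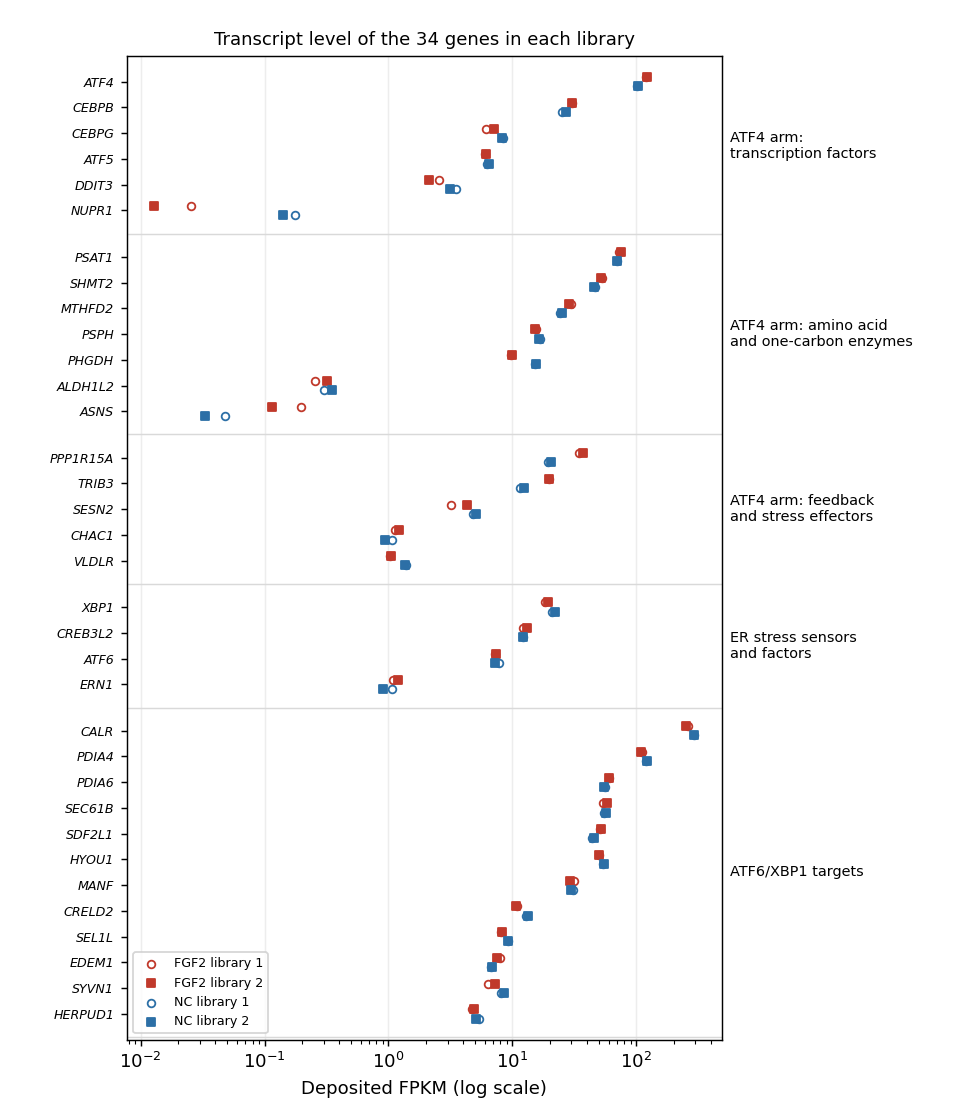
Deposited FPKM of the 34 genes in the FGF2 libraries (red) and the NC libraries (blue) on a log axis, with library 1 as open circles and library 2 as filled squares, and genes grouped by role. Levels run from 0.0128 FPKM for NUPR1 in FGF2 library 2 to 295.2 FPKM for CALR in NC library 2, and for most genes the 4 points lie close together.

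Among the transcription factors of the ATF4 arm, ATF4 itself (ENSG00000128272, chromosome 22, 39519695 to 39522685) was the most abundant. It stood at 119.6 and 122.7 FPKM in the FGF2 libraries, against 100.6 and 103.6 FPKM in the NC libraries. The groups did not overlap, and the log2 fold change was 0.33 (0.29 to 0.38). Library 1 gave 0.34 and the remaining reads 0.31. The closest pair of FGF2 and NC read sets differed by 1.1999-fold, just short of 1.2-fold, so ATF4 was not called. It was called higher with no filter on low counts, and where either read set of each group was used alone, which asks less. It stood at 0.24 when libraries were scaled by total count only.

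DDIT3 encodes CHOP, the factor that links ATF4 to cell death. It stood at 2.55 and 2.11 FPKM in the FGF2 libraries, against 3.53 and 3.16 FPKM in the NC libraries. All FGF2 values were below all NC values, but on only 76 and 113 counts in libraries 2, and the log2 fold change was -0.49 (-0.94 to -0.07). The closest read sets differed by 1.013-fold, so it was not called, though it met the bound as lower where either read set of each group was used alone. DDIT3 shares 39.6% of its exon sequence with other genes, mostly with MARS on the opposite strand. The library kit does not mark strand, and its count is uncertain.

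ATF5 encodes a relative of ATF4 that drives the mitochondrial stress programme. It stood at 6.06 and 6.08 FPKM in the FGF2 libraries, against 6.23 and 6.47 FPKM in the NC libraries, a log2 fold change of 0.00 (-0.18 to 0.18). CEBPB and CEBPG, which encode C/EBP partners of ATF4, were at 0.25 (0.15 to 0.36) and -0.13 (-0.26 to 0.00), and neither was called. ATF5 shares 21.2% of its exon sequence with NUP62 and CEBPB 11.8% with its antisense gene, both on the opposite strand. For CEBPG library 1 gave -0.37 and the remaining reads gave 0.08, so no direction held.

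NUPR1 encodes a small chromatin-associated stress protein that ATF4 induces. It had 2 and 2 counts in the FGF2 libraries, against 14 and 22 counts in the NC libraries. It met the rule as lower, at -3.10 (-6.52 to -1.36), but stood below 0.2 FPKM in every library. With 5 added to each count it was at -1.87, and it was too low to be read where a mean of 50 counts in the read sets was asked for. Over 9 settings NUPR1 ranged from -4.07 to -0.17.

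The feedback and stress effectors held both genes that were called higher. PPP1R15A (ENSG00000087074, chromosome 19, 48872392 to 48876057) encodes GADD34, the phosphatase subunit that removes phosphate from eIF2. It stood at 34.2 and 37.0 FPKM in the FGF2 libraries, against 19.3 and 20.5 FPKM in the NC libraries. The groups were well apart, with a log2 fold change of 0.94 (0.86 to 1.03), and the closest read sets differed by 1.69-fold. Its change was above those of 96.3% of the genes tested.

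TRIB3 (ENSG00000101255, chromosome 20, 362835 to 397559) encodes a pseudokinase that CHOP induces and that restrains ATF4. It stood at 19.6 and 19.7 FPKM in the FGF2 libraries, against 11.5 and 12.3 FPKM in the NC libraries. Again the groups did not overlap, and the log2 fold change was 0.77 (0.66 to 0.87), with closest read sets 1.58-fold apart. PPP1R15A and TRIB3 also met the rule at 1.5-fold, which 3.97% of genes met as higher and 8.04% as lower, and neither met it at 2-fold. Over 10 settings PPP1R15A ranged from 0.82 to 0.95 and TRIB3 from 0.64 to 0.87.

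The other effectors were less abundant and were not called. CHAC1, which encodes a glutathione-degrading enzyme that is a sensitive ATF4 and CHOP target, stood at 1.13 and 1.21 FPKM in the FGF2 libraries, against 1.07 and 0.942 FPKM in the NC libraries. Its 69 and 53 counts in libraries 2 gave 0.45 (-0.08 to 1.00), an interval that spans no difference. SESN2, which encodes a leucine sensor that restrains mTORC1, was at -0.16 (-0.36 to 0.03), though library 1 alone gave -0.51 and the remaining reads 0.08. VLDLR, a lipoprotein receptor gene induced through PERK and ATF4, stood at 1.025 and 1.048 FPKM in the FGF2 libraries, against 1.38 and 1.35 FPKM in the NC libraries (-0.28, -0.51 to -0.04). It was called lower only where libraries were scaled by total count or the reads of library 1 alone were used.

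Of the enzymes of serine synthesis only PHGDH was called. PHGDH (ENSG00000092621, chromosome 1, 119648411 to 119744226) stood at 9.83 and 9.85 FPKM in the FGF2 libraries, against 15.1 and 15.5 FPKM in the NC libraries. The groups were well separated, and PHGDH was called lower at -0.57 (-0.64 to -0.50). Library 1 gave -0.53 and the remaining reads -0.61. It did not meet the rule at 1.5-fold. The next enzymes of the same route, PSAT1 and PSPH, were at 0.19 (0.13 to 0.25) and -0.01 (-0.13 to 0.10) and were not called, and PSAT1 was the most abundant gene of the group at 74.9 FPKM against 69.8 FPKM in libraries 2.

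Of the mitochondrial folate enzymes 0 of 3 were called. SHMT2, which takes a carbon unit from serine, was at 0.28 (0.23 to 0.33) and MTHFD2, which oxidises that unit, at 0.29 (0.23 to 0.36). With total count scaling they stood at 0.19 and 0.21. MTHFD2 shares 33.2% of its exon sequence with SLC4A5 on the opposite strand, a gene with 4 and 6 counts in libraries 2. ALDH1L2, the mitochondrial formyl-tetrahydrofolate dehydrogenase gene, stood under 0.4 FPKM in every library and at -0.04 (-0.51 to 0.43).

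ASNS, the asparagine synthetase gene and a standard readout of ATF4, could not be read from these tables. It had 12 and 14 counts in the FGF2 libraries, against 3 and 4 counts in the NC libraries. The annotated gene AC079781.5 on the same strand covers 1683 of its 1752 coding bases (96.1%), and the treatment of reads that fall in more than 1 gene is not stated in the labels or headers. AC079781.5 itself had 6 counts in FGF2 library 2 and 7 counts in NC library 2. The log2 fold change of ASNS, 1.76 (0.21 to 3.94), was not called, with the closest read sets in the reverse order.

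**Figure D2:**
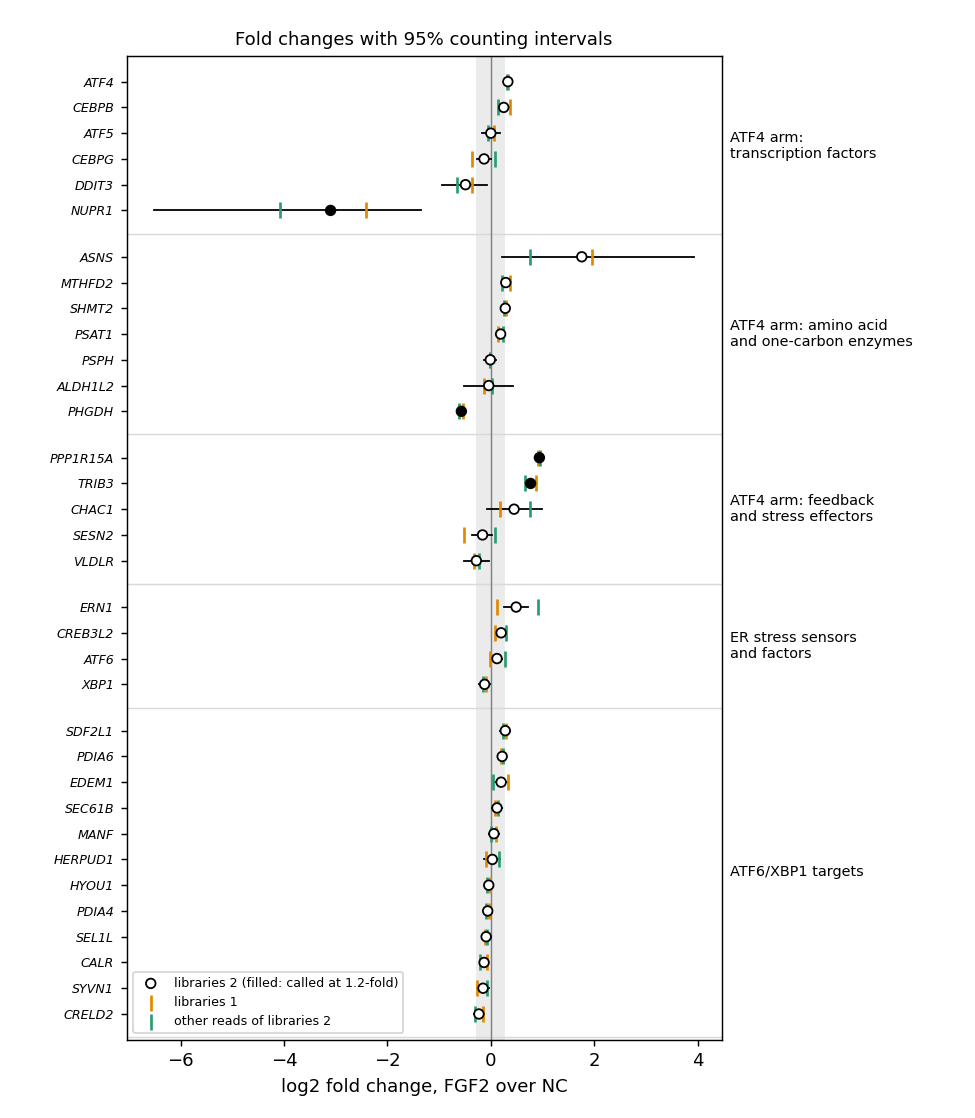
Log2 fold changes, FGF2 over NC, of the 34 genes grouped by role. Circles are libraries 2 (filled where called), lines their 95% counting intervals, orange and green ticks the values of libraries 1 and of the remaining reads, and the grey band marks 1.2-fold. The 4 called genes are NUPR1, PHGDH, PPP1R15A and TRIB3, and the ATF6 and XBP1 targets cluster around 0.

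Of the sensors and factors of the ER branches 0 of 4 were called, although ERN1, ATF6 and CREB3L2 met the bound when the reads of library 1 were left out. XBP1 stood at 18.5 and 19.2 FPKM in the FGF2 libraries, against 21.1 and 22.3 FPKM in the NC libraries, a log2 fold change of -0.12 (-0.22 to -0.02). ATF6 stood at 7.20 and 7.403 FPKM in the FGF2 libraries, against 7.77 and 7.24 FPKM in the NC libraries, and these overlapped (0.12, 0.02 to 0.22). CREB3L2, which encodes a membrane-bound relative of ATF6, stood at 12.1 and 13.1 FPKM in the FGF2 libraries, against 12.15 FPKM in both NC libraries (0.20, 0.12 to 0.27). ERN1 was the least settled of the 4. It stood at 1.09 and 1.19 FPKM in the FGF2 libraries, against 1.07 and 0.899 FPKM in the NC libraries, a log2 fold change of 0.49 (0.26 to 0.72). Library 1 gave 0.12 and the remaining reads 0.91, both outside that interval.

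The 12 targets of ATF6 and XBP1 were all well expressed, from 4.86 FPKM for HERPUD1 to 252.9 FPKM for CALR in FGF2 library 2. Of the chaperones and folding enzymes, CALR, a calcium-binding lectin chaperone gene, stood at 262.9 and 252.9 FPKM in the FGF2 libraries, against 294.8 and 295.2 FPKM in the NC libraries. The FGF2 values were lower by a small margin (-0.13, -0.16 to -0.11), and the closest read sets differed by 1.05-fold. SDF2L1, a cofactor of the chaperone BiP, had the highest value of the targets, at 50.8 and 52.0 FPKM in the FGF2 libraries, against 44.0 and 45.7 FPKM in the NC libraries (0.28, 0.17 to 0.38). CRELD2, which encodes a disulphide isomerase-like protein, had the lowest, at 10.9 and 10.8 FPKM in the FGF2 libraries, against 12.99 and 13.48 FPKM in the NC libraries (-0.23, -0.33 to -0.13). Neither reached the rule, with closest read sets 1.15-fold and 1.12-fold apart.

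The protein disulphide isomerase genes PDIA4 and PDIA6 were at -0.06 and 0.22, HYOU1, an exchange factor of BiP, at -0.04 and MANF, a secreted ER stress protein, at 0.06. PDIA6 shares 25.2% of its exon sequence with ATP6V1C2 on the opposite strand, a gene with 19 and 34 counts in libraries 2. SEC61B, a subunit of the ER translocation channel, was at 0.12. Genes of ER-associated degradation had values of the same size. EDEM1, which directs misfolded glycoproteins to disposal, was at 0.20 (0.09 to 0.31), and the ubiquitin ligase pair SEL1L and SYVN1 at -0.09 and -0.15. HERPUD1, a scaffold of the same ligase that both ATF6 and ATF4 can induce, stood at 4.71 and 4.86 FPKM in the FGF2 libraries, against 5.38 and 5.08 FPKM in the NC libraries (0.03, -0.13 to 0.18).

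Because the arms were compared by their regulators, the promoters were searched for the elements those regulators bind. RefSeq promoter windows on GRCh38.p14, 250 bases before to 50 bases after the start site, were found for 30 of the 34 genes (not for ALDH1L2, NUPR1, PSPH and SHMT2). Both strands were searched for the C/EBP-ATF response element that ATF4 binds (CARE, TGATGNAA), the ER stress response elements (ERSE, which is CCAAT and CCACG with any 9 bases between them, and ERSE-II, which is ATTGG and CCACG with any 1 base between them) and the XBP1 element (UPRE, TGACGTGG). Of all 35116 windows 3.62% held a CARE, 0.0769% an ERSE, 0.0541% an ERSE-II and 0.729% a UPRE. Counted by gene, as the members are, the shares of 27305 genes were 4.46%, 0.0916%, 0.0696% and 0.927%. An ERSE or ERSE-II was found at 6 of 12 targets and at 0 of 14 ATF4 arm genes, and a CARE at 3 of 14 ATF4 arm genes, at HERPUD1 among the targets and at CREB3L2. A gene could have more than 1 window, and for PDIA6 and CREB3L2 the window with the match lay inside the annotated gene. The CARE of CREB3L2 was 16 to 23 bases after the start site of its window. The ERSE and ERSE-II matches and the CARE matches of the ATF4 arm follow, apart from HERPUD1, with 10 bases on either side, 5′ to 3′ on the strand named, with the element in capitals.
CRELD2, ERSE, chr22:49918544-49918582, minus strand: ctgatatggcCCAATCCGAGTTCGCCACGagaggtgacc
CALR, ERSE, chr19:12938374-12938412, minus strand: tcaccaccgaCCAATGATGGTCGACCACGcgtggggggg
PDIA6, ERSE, chr2:10812843-10812881, minus strand: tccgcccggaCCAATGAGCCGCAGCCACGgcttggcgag
XBP1, ERSE, chr22:28800593-28800631, minus strand: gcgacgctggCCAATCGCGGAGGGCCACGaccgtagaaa
SDF2L1, ERSE-II, chr22:21642104-21642134, minus strand: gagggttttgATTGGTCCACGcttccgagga
HYOU1, ERSE-II, chr11:119057264-119057294, plus strand: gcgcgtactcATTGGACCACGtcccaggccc
HYOU1, ERSE-II, chr11:119057370-119057400, plus strand: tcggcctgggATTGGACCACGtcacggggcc
CEBPG, CARE, chr19:33374061-33374088, plus strand: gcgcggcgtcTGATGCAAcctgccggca
CHAC1, CARE, chr15:40953252-40953279, minus strand: ctggcaggagTGATGCAAcggcagggga
ASNS, CARE, chr7:97872459-97872486, minus strand: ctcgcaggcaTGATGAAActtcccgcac

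The upstream ERSE-II of HYOU1 overlaps the only UPRE found among the members, on the opposite strand. None of the 4 elements was found in the windows of PPP1R15A, TRIB3 and PHGDH, the called genes that have a window. HERPUD1 was the only member with both a CARE and an ERSE-II, and the 156 bases of its window before the GENCODE start of the gene (chr16:56931892-56932047, plus strand) are shown, with the CARE, which reads on the opposite strand, and then the ERSE-II in capitals.
HERPUD1: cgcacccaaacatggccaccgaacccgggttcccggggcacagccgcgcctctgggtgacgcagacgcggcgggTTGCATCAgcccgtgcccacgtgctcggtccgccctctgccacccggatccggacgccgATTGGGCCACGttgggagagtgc
The 6 targets that hold an ERSE or ERSE-II were at -0.23 (CRELD2), -0.13 (CALR), -0.04 (HYOU1), 0.03 (HERPUD1), 0.22 (PDIA6) and 0.28 (SDF2L1) on the log2 scale. They thus took both the highest and the lowest value among the targets. The 3 ATF4 arm genes with a CARE were at -0.13 (CEBPG), 0.45 (CHAC1) and 1.76 (ASNS), of which CHAC1 and ASNS rested on low counts and 0 were called.

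**Figure D3:**
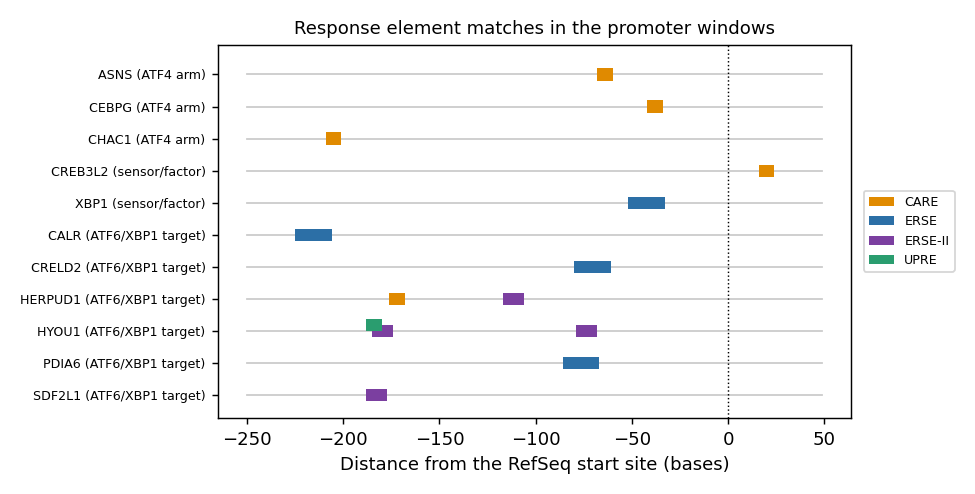
Positions of the element matches in the promoter windows of the 11 genes that hold any, by distance in bases from the RefSeq start site (dotted line), with the searched window as a grey line and colours for the element. ERSE and ERSE-II matches lie at XBP1 and at 6 ATF6 and XBP1 targets, and HERPUD1 carries a CARE as well.

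Set side by side, 2 of 18 ATF4 arm genes were called higher and 2 lower (22.2% in all), against 0 of 12 ATF6 and XBP1 targets and 28.6% of all genes tested. The share in the ATF4 arm was near the background. The median log2 fold change was 0.10 in the ATF4 arm (-0.06 for its transcription factors, 0.19 for its enzymes and 0.45 for its effectors), 0.16 for the 4 sensors and factors and -0.01 for the targets. The effector median is the value of CHAC1 and stood at 0.17 from library 1 and 0.66 from the remaining reads, and that of the sensors and factors at 0.04 and 0.28. The median size of the change without its sign was 0.29 in the ATF4 arm, 0.13 for the targets and 0.27 for all genes tested. Fewer than 1.2-fold from the NC level were 7 of 18 ATF4 arm genes, 11 of 12 targets and 49.5% of all genes tested. Low counts widen fold changes, and 13 of 18 ATF4 arm genes and 12 of 12 targets averaged 50 counts or more over the read sets. Among the 11000 genes that reached that mean, 26.2% were called, the median size was 0.21 and 58.1% lay within 1.2-fold. Of the 13 ATF4 arm genes that reached it, 2 were called higher and 1 lower, while the arm values above cover all 18 genes. With each group counted as 1 sample the difference between the arms has no test.

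**Figure D4:**
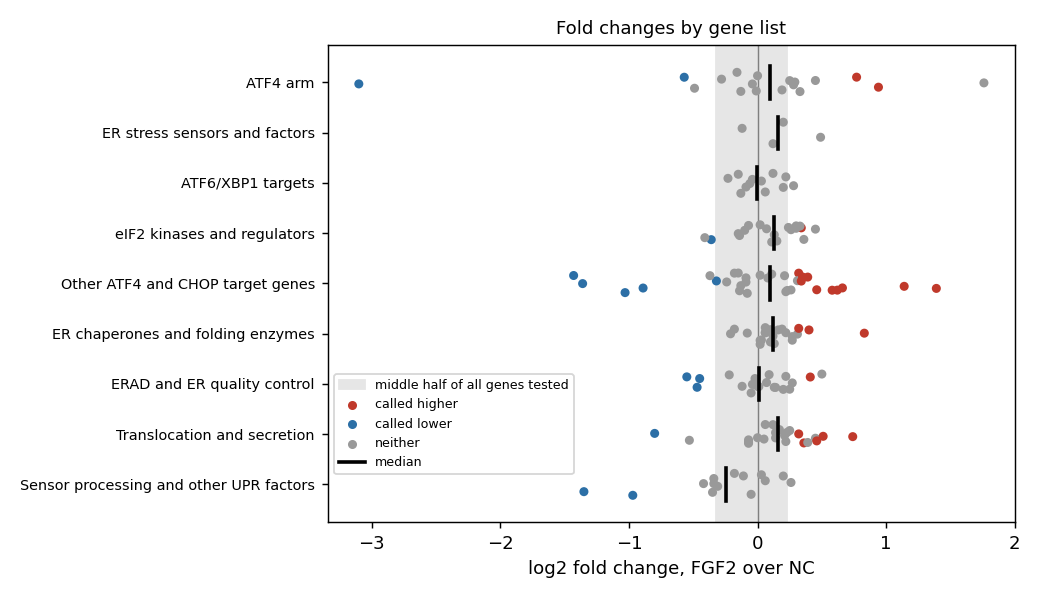
Log2 fold changes, FGF2 over NC, of each gene in the ATF4 arm, the sensors and factors, the ATF6 and XBP1 targets and the other 6 pathway lists. Points are genes (red called higher, blue called lower, grey neither), black bars medians, and the grey band the quartiles of all 15030 genes tested (-0.32 to 0.23). The ATF6 and XBP1 targets, with a median of -0.01, hold no called gene, while other ATF4 and CHOP target genes spread on either side.

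The rest of the pathway was read from 6 further lists with 136 genes, of which 133 passed the low-count filter. DERL3, ERN2 and FGF21 did not. Among these 133 genes 20 were called higher and 12 lower (24.1% in all, against 28.6% of all genes tested), with a median of 0.10. With total count scaling, which moved the median of all genes tested to -0.09, 10 were higher and 15 lower. The share of all genes called under that scaling was not computed, here or for the single lists below. Of 32 other ATF4 and CHOP target genes measured, 10 were higher and 5 lower (46.9% called, against 28.6% of all genes tested, median 0.09). With total count scaling 6 were higher and 5 lower. At 1.5-fold 2 were higher and 4 lower, a bound that 3.97% of all genes tested met as higher and 8.04% as lower. STC2, a secreted glycoprotein gene, was the highest at 91.3 and 87.7 FPKM in the FGF2 libraries, against 35.8 and 35.5 FPKM in the NC libraries (1.39, 1.35 to 1.44). VEGFA, the angiogenic factor gene that hypoxia also induces, followed at 1.14 (1.04 to 1.24). On the other side JDP2, an AP-1 repressor gene, was lowest at -1.43 (-1.66 to -1.21), then the glycine transporter gene SLC6A9 at -1.36 (-1.89 to -0.88). ATF3, a stress-induced repressor, was lower at 3.07 and 3.17 FPKM in the FGF2 libraries, against 6.10 and 6.26 FPKM in the NC libraries (-0.89, -1.08 to -0.71). DDIT4, an mTORC1 inhibitor gene, was not called at 0.02 (-0.12 to 0.15), and its read sets gave 0.22 and -0.21. It shares 41.2% of its exon sequence with its antisense gene.

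Of 19 genes for eIF2 kinases and regulators of the response 1 was called higher and 1 lower (10.5% called, against 28.6% of all genes tested, median 0.13). EIF2AK4, which encodes the amino acid sensor GCN2, was higher at 0.34 (0.27 to 0.41) and EIF2AK1, which encodes the haem-regulated kinase, was lower at -0.36 (-0.42 to -0.30). With total count scaling 0 genes of the list were higher and 2 lower, and among genes averaging 50 counts or more 0 were higher and 1 lower, so the call of EIF2AK4 ended under both. EIF2AK3, the gene of the ER sensor PERK, stood at 2.64 and 2.62 FPKM in the FGF2 libraries, against 4.09 and 3.70 FPKM in the NC libraries (-0.41, -0.60 to -0.22), and was not called, with 15.1% of its exon sequence shared. EIF2S1, which encodes the phosphorylated eIF2 subunit, was at 0.30 (0.25 to 0.35) and was not called.

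In the ER chaperone list 3 of 23 genes were higher and 0 lower (13.04% called, against 28.6% of all genes tested), with a median of 0.12, and with total count scaling 1 was higher. HSPA5, which encodes BiP, the chaperone that holds the ER sensors inactive, stood at 386.5 and 383.4 FPKM in the FGF2 libraries, against 361.9 and 358.6 FPKM in the NC libraries (0.19, 0.17 to 0.21). The chaperone gene HSP90B1 (0.03, -0.00 to 0.05) and the IRE1 and XBP1 target DNAJB9 (-0.18, -0.45 to 0.09) were also not called. TXNDC5, a thioredoxin family gene, was the highest at 0.83 (0.49 to 1.18), shares 60.6% of its exon sequence and is uncertain, and PDIA5, a disulphide isomerase gene that shares 12.2%, was higher at 0.40. Genes of ER-associated degradation had 1 of 21 higher, AUP1 at 0.41 with 18.3% of its exon sequence shared, and 3 lower, led by RNF5 at -0.55 and EDEM2 at -0.47 (19.05% called, median 0.01). Translocation and secretion genes had 5 of 24 higher, led by SSR3 at 0.74 and SEC11C at 0.51, and 1 lower, TRAM1 at -0.80 (25% called, median 0.16), but 2 higher and 1 lower with total count scaling. Among 14 other factors 0 were higher and 2 lower, the BH3-only gene BBC3 at -1.35 (-1.82 to -0.92) and the ER membrane protein gene WFS1 at -0.97 (-1.07 to -0.87), with a median of -0.24 (14.3% called), and 4 were lower with total count scaling.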

How the data were processed

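RNA-seq of AGS cells (2 FGF2 libraries and 2 NC libraries) was used as deposited. The authors deposited raw read counts and FPKM per gene, per the file headers. Per the submitters' processing notes, HISAT2, HTSeq 0.13.5 and GRCh38 were used, with no annotation release named. Gene models and exon sharing come from GENCODE v29, in which all 51103 identifiers are found and whose merged exon length equalled the length implied by counts and FPKM at 99.5% of 11923 genes with over 20 counts in every library. The NEBNext Ultra kit named in the labels does not mark strand.

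Counts were filtered with edgeR 4.0.16 filterByExpr (15030 genes kept), scaled by TMM and compared as log2 ratios with 0.5 added to each count. Because library 2 appears to contain library 1, the libraries of a group were counted as 1 sample and no test was made. The intervals thus reflect counting error alone and understate the spread between cultures. Alternatives were scaling by total count or DESeq2 1.42.0 size factors, other filters, bounds, pseudocounts and read sets, and log2(FPKM + 1). Named genes were every member called, the factors and main readouts, the highest and lowest of each role, and of other lists the extreme called genes and 8 standard genes. The members, lists and rules were chosen with earlier results of these data known.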

Additional observations from a re-analysis of the deposited data

How the results depend on the processing

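The limits are those of groups counted as 1 sample each and of counting depth. Depth leaves DDIT3, CHAC1, ALDH1L2, ASNS and NUPR1, all under 120 counts in every library, with wide intervals. No paired analysis was possible because the libraries of a group were counted as 1 sample and no result comes from a test. No called member changed sign under any setting. In the ATF4 arm the counts of 2 higher and 2 lower became 2 and 3 with total count scaling and 3 and 2 with no filter on low counts. They became 2 and 1 among genes averaging 50 counts or more, or with a 1.5-fold bound, and 0 and 1 with a 2-fold bound. With 1 read set per group, that is without replicate 1 or without replicate 2, the rule asks less. The share of all genes tested that meets it there was not computed, so these counts have no background. In the ATF4 arm 5 to 7 genes were then higher and 3 to 6 lower. Of the targets 0 to 2 were higher and 0 to 1 lower, against 0 and 0 with both read sets. Of the 4 sensors and factors 3 were higher without replicate 1 and 0 without replicate 2, and their median of 0.16 was 0.28 and 0.04 there and 0.07 with total count scaling. The median of the ATF6 and XBP1 targets was -0.10 with total count scaling, which moved the median of all genes to -0.09, and -0.04 to -0.01 under the others except log2(FPKM + 1), at -0.09. That of the ATF4 arm lay between -0.01, without members sharing at least 10% of exon sequence, and 0.16. Over the other lists 20 higher and 12 lower became 10 and 15 with total count scaling, 4 and 7 at 1.5-fold, 1 and 1 at 2-fold, and 29 to 43 and 16 to 21 with 1 read set per group. Of all genes tested 3.97% met the 1.5-fold bound as higher and 8.04% as lower. Their shares with total count scaling, at 2-fold or with 1 read set were not computed. Among single members 12 of 34 moved beyond their counting interval with total count scaling and 14 of 34 with log2(FPKM + 1).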
